A study of Mus musculus with 1 sample.

Results

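Alveolar macrophages (AMs) that carried a high share of mitochondrial RNA are described here within 1 single-cell RNA-sequencing (scRNA-seq) library of WT mouse lung. The cells were chosen by a measured value, the sum of unique molecular identifiers (UMIs, tags that count single captured RNA molecules) on genes encoded in mitochondrial DNA, as a percent of all UMIs of the cell. A total of 384 of 2055 cells lay over the limit of 5%, which is 18.7% of the cells (exact binomial 95% interval 17.0 to 20.4%, which covers counting error only). The other 1671 cells, at most 5%, served as the comparison.

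The series studies histone deacetylase 3 (HDAC3), an enzyme that removes acetyl groups from histones, in lung macrophages, and the library analysed here is its WT library. The cells were sorted as CD45+CD11c+SiglecF+ from the lungs of a mouse labelled wild-type, of the strain FVB/NJ backcrossed to C57BL/6 for over 10 generations and aged 8 to 12 weeks. The study's methods identify the WT as Hdac3 fl/fl without Cre, so that the gene carries loxP sites but is not deleted, and the series design names Csf1r-Cre where the methods name Cd11c-Cre for the mutant, which is not analysed here. With 1 library from 1 mouse, no test across animals was possible. The values below are sums over cells with exact 95% intervals for counting error, or medians over cells, and they describe this library.

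Mitochondrial DNA encodes 13 proteins, all of them subunits of the oxidative phosphorylation complexes of the inner membrane. Most subunits of the same complexes, and all proteins of the mitochondrial ribosome, are encoded in the nucleus, translated in the cytosol and imported. AMs clear surfactant lipids from the air spaces, and the nuclear receptor PPAR-γ is known to drive their lipid metabolism. The share of mitochondrial RNA in a droplet library is commonly used to judge cells, because RNA held within mitochondria and in the nucleus can stay behind when cytosolic RNA leaves a cell with a damaged membrane. A high share is also known from cells that are rich in mitochondria.

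The captured mitochondrial messages are read from their 3′ ends, and the ends of 5 of them are shown because their shares of mitochondrial RNA differed most clearly between the cells or changed with the mitochondrial share. The sequences are the last 60 bases of each gene on the plus strand, from the GENCODE annotation of mouse build GRCm38. Capitals mark the stop codon or, where the gene ends on its first base, that base. 3 of the 13 genes end so, and in these the poly(A) tail is known to complete the stop codon.

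mt-Atp6, chrM:8548-8607: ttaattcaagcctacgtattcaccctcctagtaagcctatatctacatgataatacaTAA
mt-Nd4, chrM:11485-11544: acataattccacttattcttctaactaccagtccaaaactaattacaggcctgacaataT
mt-Cytb, chrM:15229-15288: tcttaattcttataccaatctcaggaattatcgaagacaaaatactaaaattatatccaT
mt-Co1, chrM:6813-6872: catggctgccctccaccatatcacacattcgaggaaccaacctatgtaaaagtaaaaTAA
mt-Nd3, chrM:9747-9806: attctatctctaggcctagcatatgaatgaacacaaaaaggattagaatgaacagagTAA

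The genes mt-Atp8 and mt-Atp6 overlap on 1 messenger RNA, so a molecule read from its 3′ end counts for mt-Atp6. The overlap covers 43 bases, marked in capitals within chrM:7907-7989 of the same annotation. Its first letters are the start codon of mt-Atp6.

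mt-Atp8 and mt-Atp6: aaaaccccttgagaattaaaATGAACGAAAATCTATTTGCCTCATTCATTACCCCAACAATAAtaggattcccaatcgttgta

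The mitochondrial share had 1 continuous distribution, with a median of 3.21% over all cells and a maximum of 21.6%. Among the cells over 5%, the median was 6.83% and the quartiles were 5.59% and 8.96%. The SD of the share over all cells was 2.53 percentage points, against 0.369 percentage points from counting alone. The limit cuts through neighbouring cells. The 106 cells between 4.5% and 5% had a median of 147.5 mitochondrial and 3027 other UMIs, and the 88 cells between 5% and 5.5% had 167.5 and 3017. Median Malat1 was 132 per 10000 non-mitochondrial UMIs just outside the limit and 125 just inside it.

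**Figure D1:**
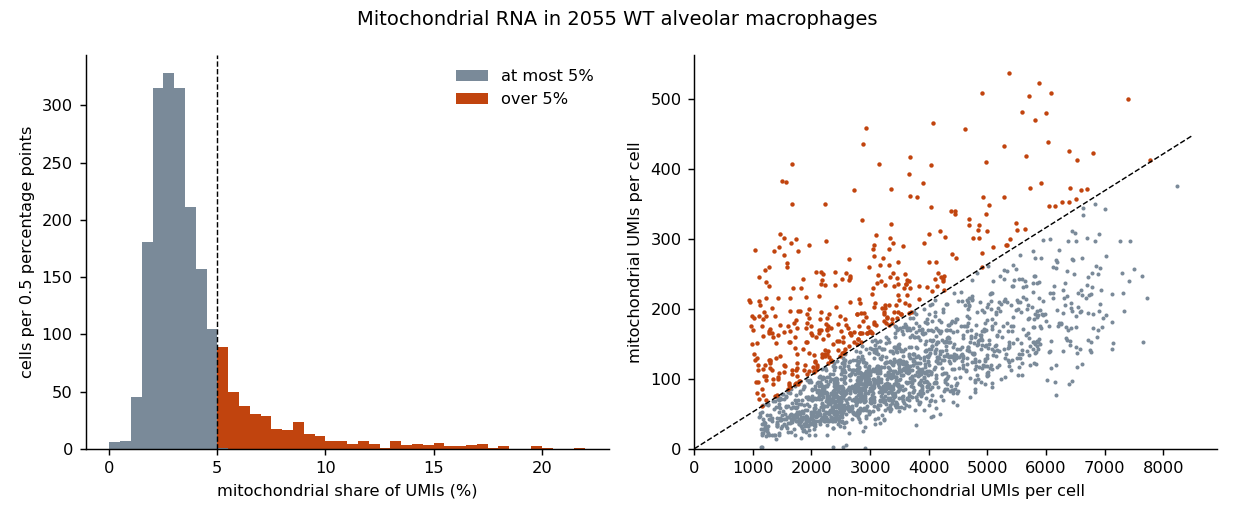
The left panel counts cells by mitochondrial share in steps of 0.5 percentage points, and the right panel plots mitochondrial against non-mitochondrial UMIs for each of the 2055 cells, with the 5% limit as a dashed line. The 384 cells over the limit (orange) form the tail of 1 distribution and reach down to 937 non-mitochondrial UMIs.

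Cells over 5% held more mitochondrial and fewer other UMIs. The median cell had 195 mitochondrial UMIs (quartiles 153 and 271) against 99 (68 and 141), and 361 of 384 cells lay above the median of the cells at most 5%. The median of the other UMIs was 2519 (1701 and 3482) against 3301 (2471 and 4348). Both quantities enter the rule, so these differences are a description and carry no test. The cells over 5% held 16.0% of the UMIs of the library and 31.6% of its mitochondrial UMIs.

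Fewer genes were detected in the cells over 5%, with a median of 1260.5 genes against 1475. After each cell was thinned to 1000 non-mitochondrial UMIs, the order turned, with 642 genes in 379 cells over 5% and 630 genes in 1671 cells at most 5%. The remaining 5 cells over 5% held too few UMIs for this.

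The UMIs of each cell were also divided at random into equal parts, so that cells chosen in 1 part could be measured in the other. Of 390 cells over 5% in the choosing part, 333 (85.4%) were over 5% in the measuring part, where their median share was 6.70%. Of the 1665 cells not chosen, 54 (3.24%) were over 5% in the measuring part, with a median of 2.93%. This split shares the cells and the library, and speaks only to counting noise.

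The mitochondrial genes did not all differ by the same factor, and the make-up of the mitochondrial RNA differed. As a share of mitochondrial UMIs, messages of complex V (ATP synthase) took 24.6% in the cells over 5% and 21.8% in the others, a ratio of 1.12 (1.11 to 1.14). The share of complex III, which is mt-Cytb alone, was 9.41% against 8.58% (ratio 1.10, 1.07 to 1.13). The 3 genes of complex IV, cytochrome c oxidase, took 45.0% against 49.0% (ratio 0.917, 0.906 to 0.928). The 7 genes of complex I, NADH dehydrogenase, took 21.0% against 20.5% (ratio 1.02, 1.01 to 1.04).

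The complex V share was carried by mt-Atp6, a subunit of the proton channel, with 24.3% of mitochondrial UMIs against 21.6% (20517 and 39407 UMIs, ratio 1.13, 1.11 to 1.15). Of complex I, mt-Nd4 took 5.60% against 4.88% (ratio 1.15, 1.11 to 1.19). The share of mt-Nd4l, which overlaps the start of mt-Nd4, was 0.673% against 0.605% (ratio 1.11, 1.00 to 1.23), but the ratio was 0.998 with a limit of 6%. In the other direction, mt-Nd3 took 1.34% against 1.74% (1129 and 3176 UMIs, ratio 0.770, 0.719 to 0.825). The catalytic oxidase subunit gene mt-Co1 took 18.2% against 20.8% (ratio 0.874, 0.858 to 0.891), and mt-Co3 took 17.9% against 19.2% (ratio 0.932, 0.914 to 0.95). Ratios of mt-Nd1, mt-Nd2, mt-Co2, mt-Nd5 and mt-Atp8 had intervals that held 1. Only 10 and 58 UMIs fell on mt-Nd6, the gene on the other strand, whose message is known to lack a stable poly(A) tail (ratio 0.374, 0.170 to 0.737).

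The composition moved with the mitochondrial share below the limit as well as above it. From cells at most 2% to cells over 10%, mt-Atp6 went from 18.3% to 25.5% of mitochondrial UMIs and mt-Nd4 from 4.03% to 6.07%. Over the same range mt-Co1 went from 23.1% to 16.1% and mt-Nd3 from 2.41% to 1.21%. In cells of 4 to 5%, on the near side of the limit, the values lay between, at 22.8% for mt-Atp6, 19.9% for mt-Co1 and 1.51% for mt-Nd3.

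**Figure D2:**
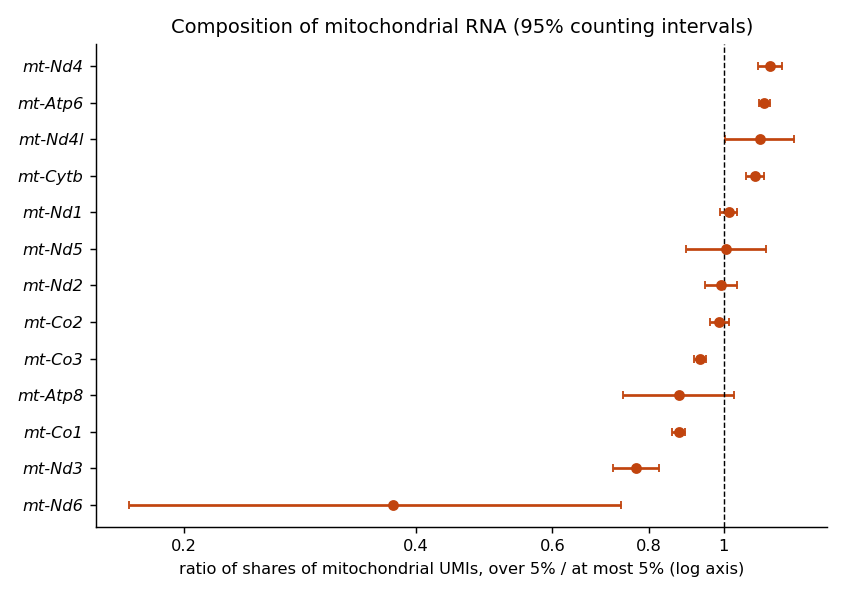
Each point is the share of a gene among mitochondrial UMIs in cells over 5% divided by that in cells at most 5%, on a log axis, with exact 95% counting intervals, and the dashed line is a ratio of 1. mt-Nd4 (1.15) and mt-Atp6 (1.13) lie highest, and mt-Nd3 (0.770) and mt-Nd6 (0.374) lie lowest.

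Copies of mitochondrial genes in the nuclear genome can share reads with the originals. For 5 of the 13 genes (mt-Co2, mt-Atp6, mt-Co3, mt-Nd3 and mt-Nd4l), over 90% of windows of 98 bases, the length of the sequenced read, also occur in the transcript of an annotated nuclear copy. The same held for 60.8% of the windows of mt-Nd4, 31.2% of mt-Co1 and 3.40% of mt-Nd2. The values of these genes are uncertain to that extent. The composition ratios of the 5 genes ran from 0.770 to 1.13, and that of mt-Cytb, which shared no window, was 1.10. Whether shared reads had a part in the composition ratios, or were lost differently among cells, was not tested.

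All further values are shares of non-mitochondrial UMIs, so that the mitochondrial UMIs that chose the cells do not enter them. The non-mitochondrial UMIs are part of the total in the rule, so these shares are not wholly free of the choice of cells. Among 4289 genes with at least 200 UMIs, 787 (18.3%) were higher in the cells over 5% by the fold used here, with a share in the other cells of at most 0.8 times theirs. A total of 324 (7.55%) were lower by the same fold, with a share of at most 0.8 times that of the others. Of the genes past the fold, 70.8% were higher. The median ratio over all genes was 1.05, and with ratios divided by that median, 50.3% were higher (546 genes higher and 539 lower). Shares over all UMIs gave 51.7% (563 and 526 genes), so the balance of directions depends on the scale. Among 1148 genes with at least 1000 UMIs, where counting error is smaller, 83 (7.23%) were higher and 82 (7.14%) lower by the fold. Genes past the fold near 200 UMIs can lie there by counting error alone.

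Nuclear long non-coding RNAs had the highest ratio of the gene lists. Malat1, an abundant RNA of nuclear speckles (chromosome 19, 5795690 to 5802672, minus strand), had 268 UMIs per 10000 non-mitochondrial UMIs in cells over 5% (28747 UMIs, 264 to 271) and 143 in the others (84349 UMIs, 142 to 144). The ratio was 1.87 (1.84 to 1.89). In single cells the median was 243 (quartiles 125 and 431) against 124 (79.0 and 191), and 288 of 384 cells (75%) lay above the median of the others, so the cells overlapped widely. Neat1, the scaffold of paraspeckles (chromosome 19, 5824708 to 5845478), was at 5.16 against 3.05 (ratio 1.69, 1.53 to 1.86). Kcnq1ot1, an imprinted RNA kept at chromatin (chromosome 7, 143203458 to 143296549), was at 3.29 against 1.84 (ratio 1.79, 1.58 to 2.02). All 3 members of the list with at least 200 UMIs were past the fold, beside 18.3% of all genes. Xist, which coats the inactive X chromosome and was looked up after its values were seen, was at 18.1 against 12.1 (ratio 1.49, 1.42 to 1.57).

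Genes of the cytosolic ribosome were lower as a group. Their summed level was 1278 per 10000 in cells over 5% and 1530 in the others, a ratio of 0.835 (0.831 to 0.840). Each of the 95 ribosomal protein genes tested, pseudogene copies included, had a ratio under 1 (0.681 to 0.992), with a median of 0.834, beside a median of 1.05 over all genes. A total of 22 of the 95 were lower by the fold, beside 7.55% of all genes, and 0 were higher. Rpl35 was at 27.7 against 36.2 (ratio 0.766, 0.737 to 0.796) and Rps3 at 12.8 against 16.7 (ratio 0.767, 0.724 to 0.811), and Rpl41 was at 66.3 against 77.8 (ratio 0.853, 0.831 to 0.874). In single cells the median of the sum was 1260 (quartiles 985 and 1453) against 1524 (1351 and 1687), and 72 of 384 cells lay above the median of the others. Of the 22, Rpl10-ps3 (ratio 0.681), Rpl23a-ps3 (0.724) and others are pseudogenes that share reads with their parent genes and are uncertain. Translation factors were less shifted, with a summed ratio of 0.937 (0.921 to 0.954). None of 19 was past the fold, beside 18.3% higher and 7.55% lower of all genes. Among the translation factors, Eef1a1, which brings aminoacyl-tRNA to the ribosome, was at 26.8 against 26.5 (ratio 1.01, 0.972 to 1.05).

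Nuclear genes for the respiratory chain, partners of the mitochondrial genes in the same complexes, did not follow them upward. Their summed level was 304 per 10000 non-mitochondrial UMIs in cells over 5% and 344 in the others (ratio 0.884, 0.874 to 0.895). Of 80 genes tested, 72 had a ratio under 1, with a median of 0.897 beside 1.05 over all genes. The number lower by the fold was 9, close to the 7.55% of all genes, and 1 was higher, beside 18.3% of all genes. The sums for the nuclear subunits were 0.911 (0.891 to 0.931) for complex I, 0.940 (0.853 to 1.03) for complex II, 0.857 (0.830 to 0.885) for complex III, 0.873 (0.854 to 0.892) for complex IV and 0.880 (0.861 to 0.900) for complex V. Complex II, succinate dehydrogenase, has no subunit in mitochondrial DNA. Its list rests on 4 genes with 501 UMIs in the cells over 5%. Its wide interval held 1 and also the ratios of the other complexes, so it was not told apart from them.

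Cox7b, a small oxidase subunit, was lowest in the group at 2.31 against 3.35 (ratio 0.689, 0.601 to 0.786). Ndufb6 of complex I was at 1.91 against 2.49 (ratio 0.767, 0.659 to 0.888). Cytochrome c (Cycs), the soluble electron carrier, was at 3.59 against 4.57 (ratio 0.786, 0.704 to 0.874). The abundant oxidase gene Cox4i1 was at 15.8 against 17.7 (ratio 0.892, 0.847 to 0.939), and Atp5l of ATP synthase was at 15.2 against 17.7 (ratio 0.862, 0.817 to 0.908). The gene higher by the fold was Ndufs1, the largest subunit of complex I, at 0.503 against 0.367 from 54 and 216 UMIs (ratio 1.37, 0.996 to 1.85), with an interval that held 1.

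Other nuclear genes for mitochondria behaved alike in part. The mitochondrial ribosome had a summed ratio of 0.862 (0.838 to 0.887), with 13 of 56 genes lower by the fold and 0 higher, beside 7.55% lower and 18.3% higher of all genes. Mrpl33 was at 4.39 against 5.83 (ratio 0.754, 0.683 to 0.830). Genes of import and dynamics had a ratio of 0.899 (0.875 to 0.924) with 4 of 24 lower (7.55% of all genes), among them Slc25a5, the adenine nucleotide carrier (7.08 against 9.04, ratio 0.783, 0.725 to 0.845). Only 5 of 30 genes that copy, transcribe or process mitochondrial DNA reached 200 UMIs, and their list had a ratio of 0.952 (0.872 to 1.04). Of these, Slirp, which stabilises mitochondrial messages, was at 1.17 against 1.52 (ratio 0.770, 0.634 to 0.929), and Mterf3, a repressor of mitochondrial transcription, at 0.223 against 0.374 (24 and 220 UMIs, ratio 0.597, 0.375 to 0.912).

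The sums for the tricarboxylic acid cycle (0.957, 0.897 to 1.02) and for fatty acid oxidation (0.969, 0.919 to 1.02) had intervals that held 1. Members of fatty acid oxidation went both ways, with 3 of 16 higher by the fold, a share like the 18.3% of all genes, and 3 lower, beside 7.55% of all genes. Cpt1a, which commits fatty acids to import into mitochondria, was at 1.92 against 1.48 (ratio 1.29, 1.10 to 1.51). The electron carrier gene Etfb was at 2.95 against 3.93 (ratio 0.751, 0.665 to 0.844). Citrate synthase (Cs) was at 0.661 against 0.493 (ratio 1.34, 1.02 to 1.74).

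**Figure D3:**
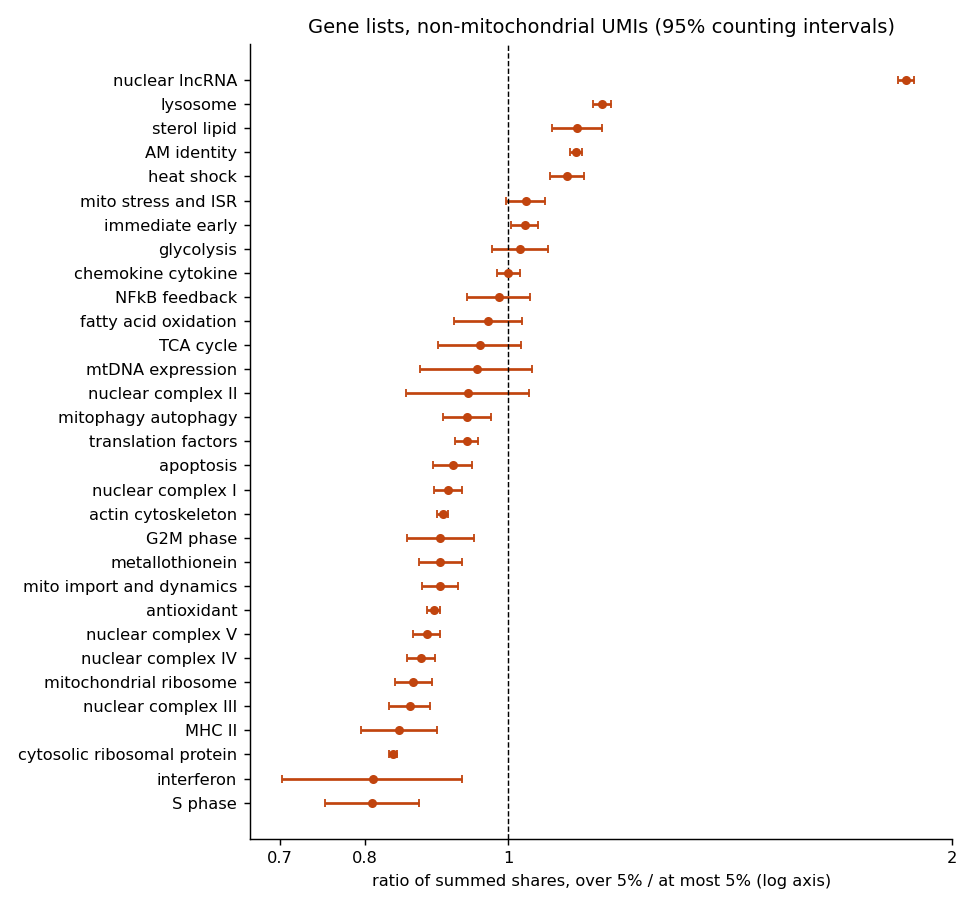
Each point is the summed share of a gene list in cells over 5% divided by that in cells at most 5%, on a log axis, with exact 95% counting intervals, and the dashed line is a ratio of 1. Nuclear long non-coding RNA (1.86) and lysosome genes (1.16) lie above 1, and cytosolic ribosomal proteins (0.835) and the nuclear subunits of complexes III, IV and V below it.

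Lysosome genes were higher in the cells over 5%, with a summed ratio of 1.16 (1.14 to 1.17). Of 30 genes tested, 27 had a ratio above 1, 9 were higher by the fold (against 18.3% of all genes) and 0 were lower. Psap, the precursor of the saposins that help degrade sphingolipids, was at 32.1 against 23.6 (ratio 1.36, 1.31 to 1.41). The protease gene Ctsd was at 29.5 against 22.2 (ratio 1.33, 1.28 to 1.38). Npc1, which exports cholesterol from lysosomes, was at 1.68 against 1.14 (ratio 1.48, 1.2 to 1.8), and Grn, the progranulin gene, at 5.50 against 3.94 (ratio 1.40, 1.27 to 1.53). Atp6v0e, a small subunit of the proton pump, had a ratio of 0.900 (0.846 to 0.956).

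The cells over 5% carried the transcripts that define AMs. The summed level of AM identity genes was 467 per 10000 against 420 (ratio 1.11, 1.10 to 1.12), with 5 of 28 higher by the fold, a share like the 18.3% of all genes, and 0 lower. Siglecf and Itgax, the genes of SiglecF and CD11c used in the sort, were at 2.18 against 1.60 (ratio 1.36, 1.17 to 1.57) and at 4.29 against 3.08 (ratio 1.40, 1.26 to 1.55). Chil3, a chitinase-like lectin, was at 161 against 137 (ratio 1.17, 1.15 to 1.19), and Mrc1, the mannose receptor, at 12.3 against 9.62 (ratio 1.28, 1.20 to 1.36). Of the 28, 22 had a ratio above 1 and 6 below. Il18 lay lowest of the list, at 11.6 against 13.9 (ratio 0.837, 0.788 to 0.888). Also under 1 were Fabp5 (0.841, 0.767 to 0.920), Fabp1 (0.883, 0.835 to 0.932), Atp6v0d2 (0.934, 0.862 to 1.01) and Fabp4 (0.961, 0.864 to 1.07). Pparg, the nuclear receptor that drives AM differentiation, was at 1.11 against 1.24 from 119 and 728 UMIs (ratio 0.895, 0.731 to 1.09). Hdac3 was at 0.205 against 0.165 from 22 and 97 UMIs (ratio 1.24, 0.744 to 1.99), a difference not detectable at this depth.

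Markers of most other cell types were rare in both sets of cells. Of the lists for T and NK cells, neutrophils, monocytes and interstitial macrophages, eosinophils, dendritic cells and endothelium, the summed levels were between 0.00931 and 0.354 per 10000 in the cells over 5% and between 0.0187 and 0.537 in the others. None of the listed markers of fibroblasts and erythroid cells was among the deposited genes. Epithelial markers were at 4.37 against 3.53 (ratio 1.24, 1.12 to 1.37), of which Epcam made up 397 of 470 UMIs. Epcam itself was not rare, with a UMI in 57.0% of the cells over 5% and in 58.3% of the others. The defining surfactant gene Sftpc was at 0.428 against 0.214 (46 and 126 UMIs, ratio 2.00, 1.39 to 2.82), Scgb1a1 of club cells was at 0.186 against 0.218, and Sftpb was at 0 of 1074421 UMIs in the cells over 5%, for which 3 counts, the limit that a count of 0 allows, are a level of 0.0279 per 10000. Their part in the other differences was not tested. The list for B and plasma cells was lower through Jchain, of which 94.3% of the UMIs in the cells at most 5% came from 1 cell.

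Stress and death lists gave no common direction. Heat shock genes had a summed ratio of 1.10 (1.07 to 1.13), with 3 of 12 higher by the fold, near the 18.3% of all genes, and Hspa5, the chaperone of the endoplasmic reticulum, was at 10.6 against 7.66 (ratio 1.38, 1.29 to 1.48). Apoptosis genes had a ratio of 0.917 (0.889 to 0.945), with 2 of 17 higher and 2 lower, near the 18.3% and 7.55% of all genes. Fas, a death receptor, was at 0.419 against 0.279 (45 and 164 UMIs, ratio 1.50, 1.06 to 2.1), and Bcl2a1d, a survival factor whose near-identical copies can share reads, at 4.85 against 6.10 (ratio 0.795, 0.724 to 0.871). Genes of mitochondrial stress and the integrated stress response had a ratio of 1.03 (0.997 to 1.06), within which the stress cytokine Gdf15 was at 1.35 against 1.01 (ratio 1.34, 1.11 to 1.60). Mitophagy and autophagy genes had a ratio of 0.938 (0.903 to 0.973). None of 13 was past the fold, beside 18.3% higher and 7.55% lower of all genes.

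Antioxidant genes had a summed ratio of 0.890 (0.881 to 0.900), set mainly by the ferritins Fth1 (156 against 178, ratio 0.873, 0.858 to 0.887) and Ftl1 (146 against 163, ratio 0.893, 0.878 to 0.908). Of 23 genes tested in that list, 12 had a ratio above 1 and 11 below, with a median of 1.01. Slc7a11, the cystine importer, had the highest ratio of the list, at 1.29 against 0.755 (139 and 444 UMIs, ratio 1.71, 1.41 to 2.08). Glycolysis genes had a sum of 1.02 (0.975 to 1.06) and 4 of 11 members higher by the fold (18.3% of all genes), among them Pfkfb3, which makes an activator of phosphofructokinase (51 and 177 UMIs, ratio 1.58, 1.13 to 2.16). The most abundant member, Gapdh, was at 5.26 against 6.19 (ratio 0.849, 0.776 to 0.928). Actin cytoskeleton genes had a sum of 0.903 (0.895 to 0.911), with Tmsb4x, which binds free actin, at 219 against 253 (ratio 0.866, 0.854 to 0.878). Metallothioneins, which bind metals and despite their symbols are nuclear genes, had a sum of 0.899 (0.870 to 0.930). Sterol and lipid genes had a sum of 1.11 (1.07 to 1.16). Of 13 tested, 1 was higher by the fold and 0 were lower, beside 18.3% higher and 7.55% lower of all genes.

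Immune lists were led by single chemokines. The chemokine and cytokine list had a summed ratio of 1.00 (0.982 to 1.02), within which Ccl4 was at 0.577 against 1.26 (62 and 739 UMIs, ratio 0.459, 0.349 to 0.596) and Ccl3 at 2.18 against 3.27 (ratio 0.666, 0.579 to 0.763). Cxcl3 was at 0.661 against 0.337 (ratio 1.96, 1.48 to 2.59), but 1 cell held 38% of its 71 UMIs. NF-κB feedback genes had a sum of 0.985 (0.938 to 1.03) and immediate-early genes of 1.03 (1.00 to 1.05). MHC class II genes had a sum of 0.844 (0.795 to 0.894), with Cd74, the invariant chain, at 4.19 against 6.21 (ratio 0.675, 0.610 to 0.744), while the median cell had 6.11 against 5.39 per 10000, the opposite order. The few interferon genes had a sum of 0.810 (0.702 to 0.930) from 231 and 1562 UMIs, but of 1.00 in cells of 2000 to 5000 UMIs and of 1.03 without cells with cell cycle genes.

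Cell cycle genes were lower in the sum. S phase genes had a ratio of 0.809 (0.751 to 0.870), with 5 of 8 tested genes lower by the fold and 1 higher, and G2/M genes a ratio of 0.900 (0.854 to 0.947), with 5 of 14 lower and 1 higher, beside 7.55% lower and 18.3% higher of all genes. Rrm2, a subunit of ribonucleotide reductase, was at 0.177 against 0.389 (19 and 229 UMIs, ratio 0.454, 0.268 to 0.726), and Birc5, the survivin gene, at 0.307 against 0.580 (33 and 341 UMIs, ratio 0.530, 0.359 to 0.758). The median cell differed little, at 6.00 against 6.01 per 10000 for S phase genes and at 10.2 against 10.3 for G2/M genes. In cells of 2000 to 5000 UMIs the ratios were 0.851 and 0.964. Without cells with 3 or more UMIs of either set the G2/M ratio was 1.21. That filter caps the UMIs of these same genes in each cell, so the shares left depend on depth. The cells left over 5% were shallower (ratio of median non-mitochondrial UMIs 0.729), so no direction is read from this value. Cells with 3 or more UMIs of either set were 59.6% of the cells over 5% and 73.0% of the others, and 17.7% against 17.9% after thinning to 1000 UMIs per cell.

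The genes at the ends of the ratio list had few UMIs. The highest were Cd93, a receptor of myeloid and endothelial cells (59 and 163 UMIs, ratio 1.98, 1.45 to 2.68), Unc45a, a myosin chaperone (1.94, 1.40 to 2.66), Itch, a ubiquitin ligase (1.90, 1.45 to 2.47), and Fto, an RNA demethylase (1.89, 1.39 to 2.54). They were followed by Csnk1g1, Malat1, Plec, Cd22, Crlf2, PISD, Madd, Nsd1, Kcnq1ot1, Etv6 and Appl1, with ratios of 1.87 down to 1.78. The lowest was Mcee, an enzyme of propionate breakdown in mitochondria (20 and 239 UMIs, ratio 0.458, 0.275 to 0.724), then Ccl4 and Nsmce2 (0.516), with Snrnp25, Gm6116, 2310033P09Rik, Nxt2, Gmnn, Apool, Gm6563, Nudt19, Mrpl40, Mterf3, Dnajc9 and Pmf1 at 0.533 to 0.606. Gmnn, or geminin, limits DNA replication to 1 round, and Apool is a protein of the inner mitochondrial membrane.

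Ratios went with the length of the transcript. Of the 4289 genes tested, 4174 (97.3%) matched the annotation. Across 1125 genes with at least 1000 UMIs, the Spearman correlation of the ratio with the length of the longest annotated transcript was 0.535, and 0.504 over 1037 genes without ribosomal proteins. Genes share the library and are no independent replicates, so these are descriptions with no test. In the shortest of 4 equal classes of transcripts (374 to 1256 bases) the median ratio was 0.879, with 0 of 281 genes higher and 45 lower by the fold. In the longest class (3800 bases and over) it was 1.12, with 54 of 282 higher and 2 lower. Of all 1148 genes with at least 1000 UMIs, 7.23% were higher and 7.14% lower by the fold. The correlation with GC content was -0.055 and that with the UMIs of the gene was -0.244. Ribosomal protein, respiratory chain and mitochondrial ribosome genes are mostly short. The annotated genes of Malat1, Neat1 and Kcnq1ot1 each span over 3800 bases. Whether length had a part in the lower levels of the former or the higher levels of the latter was not tested.

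Within the cells over 5%, the differences in Malat1, ribosomal protein, respiratory chain and lysosome genes were larger at higher mitochondrial share, while those in cell cycle genes were not. Median Malat1 was between 118 and 127 per 10000 in each of the 4 classes of cells up to 5%. It was 147 in 138 cells of 5 to 6%, 197 in 113 cells of 6 to 8%, 321 in 64 cells of 8 to 10% and 670 in 69 cells over 10%. The quartiles of the last class, 459 and 848, did not overlap those of any other class. The ribosomal protein sum had a median of 1566 in cells at most 2% and of 1459 at 4 to 5%, and then of 1409, 1310, 1021 and 737 in the classes above 5%.

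Nuclear respiratory chain genes had medians of 350 in cells at most 2% and 330 at 4 to 5%, followed by 317, 301, 258 and 214. Lysosome genes had medians of 177 to 189 up to 5%, and of 200, 203, 233 and 269 above. The summed mitochondrial ribosome was at 58.0 per 10000 in cells at most 2% and at 36.1 in cells over 10%. AM identity genes, at 390 to 412 up to 5%, had medians of 411, 463, 480 and 477 above. Heat shock genes were at 58.2 and 72.1 in the first and the last class, and apoptosis genes at 49.5 and 37.9. S phase genes were at 7.78, 6.73, 8.42 and 10.3 in the classes above 5%, against 9.41 at 4 to 5%, and G2/M genes at 16.0, 14.7, 13.7 and 19.0, against 14.5.

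**Figure D4:**
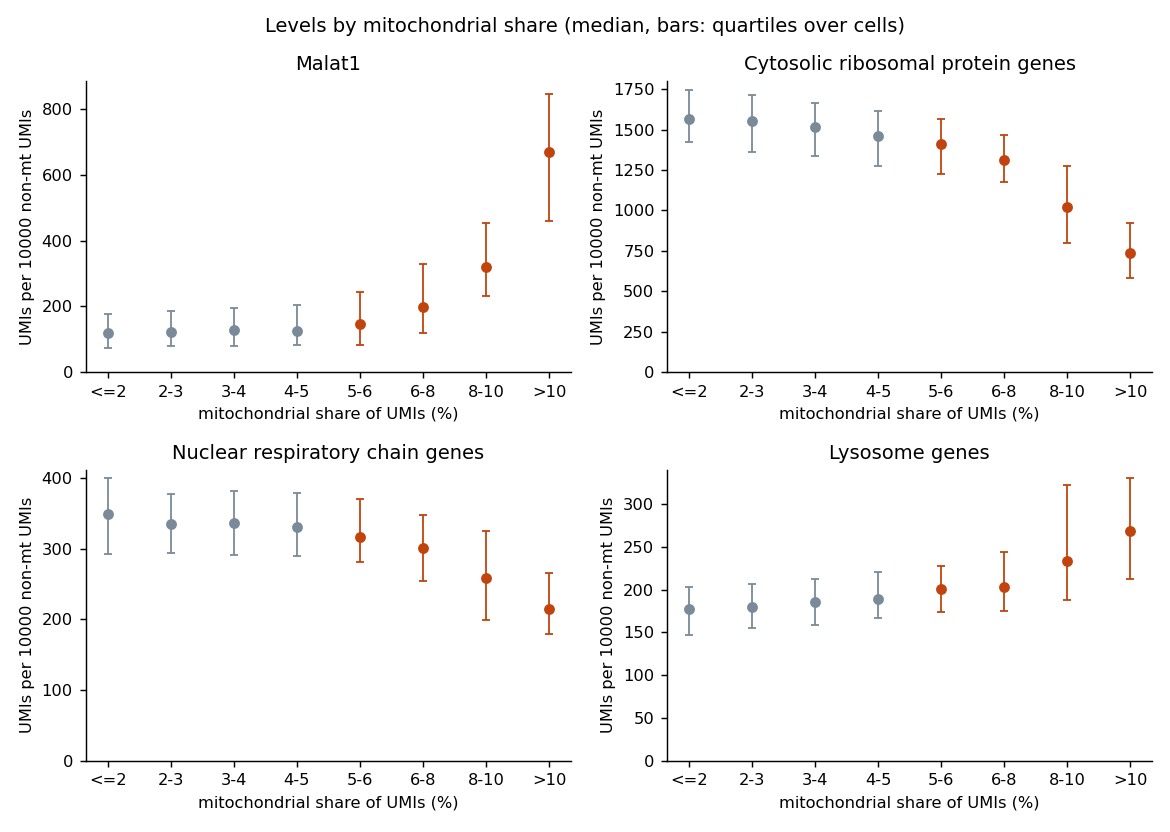
Points are medians over cells and bars the quartiles of UMIs per 10000 non-mitochondrial UMIs, by class of mitochondrial share, with cells over 5% in orange. Malat1 stays between 118 and 127 up to 5% and reaches 670 over 10%, while ribosomal protein genes go from 1566 to 737, respiratory chain genes from 350 to 214 and lysosome genes from 177 to 269.

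Depth moved with the mitochondrial share too. Median non-mitochondrial UMIs were 2802.5 in cells at most 2%, 3445.5 in the 3 to 4% class, 3004.5 at 5 to 6%, 2922 at 6 to 8%, 2058.5 at 8 to 10% and 1427 over 10%. Median mitochondrial UMIs were 149 at 4 to 5% and 230 over 10%. Non-mitochondrial UMIs are part of the denominator of the share, so this order is partly set by the rule. The cells over 5% made up 37.8% (32.3 to 43.6%) of 299 cells under 2000 UMIs, 18.7% of 584 cells of 2000 to 3000, 15.9% of 522 cells of 3000 to 4000 and 12.2% (9.74 to 14.9%) of 650 cells of 4000 and over.

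Within each class of depth, Malat1, Neat1 and Kcnq1ot1 were higher in the cells over 5%, and ribosomal protein and respiratory chain genes lower. Median Malat1 was 417 against 112 in cells under 2000 UMIs, 262 against 135 at 2000 to 3000, 204 against 116 at 3000 to 4000 and 153 against 128 at 4000 and over. Ribosomal protein genes were at 922 against 1459 in the shallowest class and at 1337 against 1537 in the deepest. For respiratory chain genes the values were 240 against 309 and 320 against 351. The ratio of Neat1 was 3.00 (2.28 to 3.97) in the shallowest class and 1.36 (1.15 to 1.60) in the deepest, and that of Kcnq1ot1 3.25 (2.25 to 4.74) and 1.51 (1.21 to 1.86). AM identity genes were at 475 against 361 in the shallowest class and at 439 against 446 in the deepest, where the order turned.

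**Figure D5:**
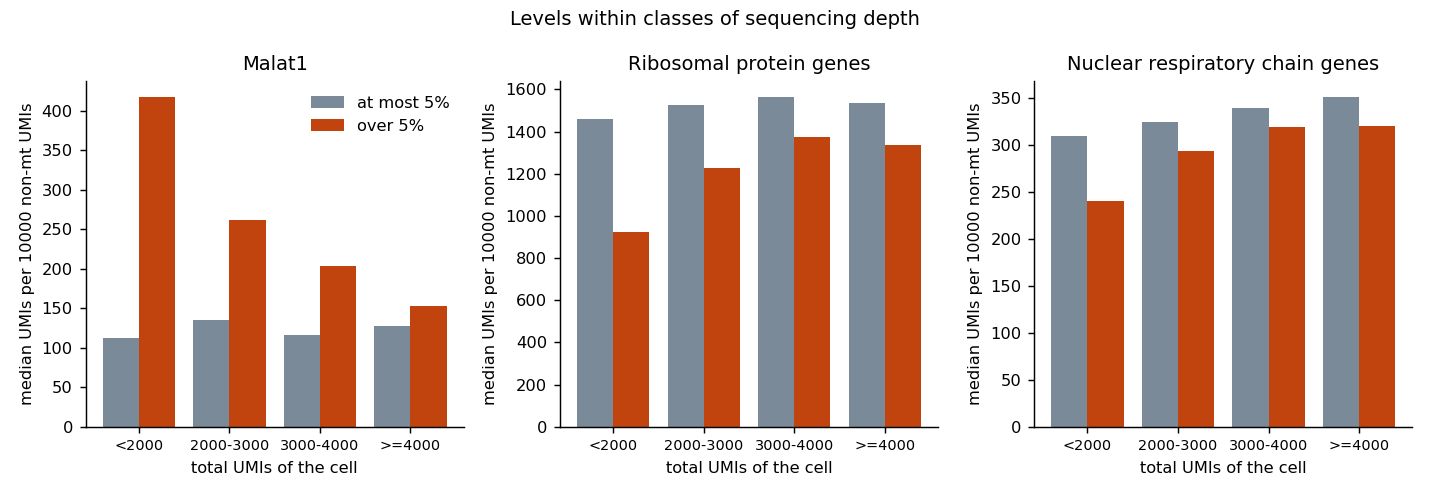
Bars are medians over cells of UMIs per 10000 non-mitochondrial UMIs in 4 classes of total UMIs, for cells at most 5% (grey) and over 5% (orange). The gap in Malat1 is 417 against 112 under 2000 UMIs and 153 against 128 at 4000 and over, while the medians of both other groups are lower over 5% in every class.

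Across the 384 cells over 5%, the Spearman correlation of the mitochondrial share was 0.592 with Malat1, -0.599 with ribosomal protein genes, -0.463 with respiratory chain genes and -0.476 with non-mitochondrial UMIs. Across the 1671 cells at most 5% the same values were 0.0537, -0.160, -0.0403 and 0.0838. Malat1 and ribosomal protein genes had a correlation with each other of -0.633 over 5% and of -0.266 at most 5%. Cells of 1 library share depth and handling, and shares of 1 total are not free of each other, so these are descriptions.

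The scaled scores deposited beside the expression values rest on the same mitochondrial UMIs that chose the cells. A difference in the scores of mitochondrial genes is therefore set by the rule and is given as description only. Mean score of mt-Atp6 was 1.31 in cells over 5% and -0.302 in the others, and that of mt-Co3 was 1.27 and -0.291. Over the 13 mitochondrial genes, deposited scores correlated across cells at 0.991 to 1.00 with scores rebuilt by regression on UMIs per cell alone, and at 0.574 to 1.00 with scores rebuilt by regression on UMIs and mitochondrial share. The mitochondrial difference was thus still present in the deposited scores.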

How the data were processed

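CD45+CD11c+SiglecF+ cells (5000 loaded) from 1 WT mouse were profiled with the 10x Chromium 3′ v2 kit. Per the study's methods, the authors aligned reads to mm10 with Cell Ranger and excluded cells with very many or very few genes or over 5% mitochondrial content, together with ribosomal protein genes and Xist. In the deposited table these genes and 384 cells over 5% were present. The study states 2055 cells, the number in the files; its stated limit would leave 1671. The deposited expression values are the natural log of 1 plus UMIs per 10000 UMIs of the cell, by Seurat (named in the submitters' processing notes). The deposited scaled score is, per the authors, the residual after regression on UMIs and mitochondrial content.

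Values were exponentiated and whole UMIs recovered in Python 3.11.15 with numpy 2.4.6 and scipy 1.17.1 (100% of values within 0.01 of a whole number), giving 7222978 UMIs, 1143 to 8603 per cell, over 11918 genes. UMIs were summed over cells and ratios of shares given exact conditional binomial intervals (95%), levels exact Poisson intervals. These cover counting error only. No test was run with 1 library, and no doublet caller (most genes in a cell, 2495). A gene needed 200 UMIs and counted past the fold where the lower share was at most 0.8 times the higher. Named were all mitochondrial genes, the 15 highest and 15 lowest ratios among genes seen in 10% of cells of a set, members with most UMIs of each list or past the fold, Hdac3 and Pparg. The intervals were tested on simulated pooled counts without variation among cells, which speaks to counting error only. Sequences and lengths came from GENCODE vM21. The cells and the lists were chosen with earlier results of these data known. Alternatives were other limits, comparison cells, weights, thinning, denominators, minimums and depth classes. Division by the median ratio, cells split at 8%, the class over 10%, depth classes and regression on UMIs alone were chosen after seeing the data.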

Additional observations from a re-analysis of the deposited data

How the results depend on the processing

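The limit set the number of cells, with 647 cells over 4% and 246 over 6%, and with 549 cells over 5% when ribosomal protein genes were left out of the total. Genes higher by the fold numbered 440 at 4%, 1939 with at least 50 UMIs, 238 with at least 500 UMIs and 1506 for cells over 8% only, against 787. Genes lower numbered 135 at 4%, 568 at 6%, 652 with thinned UMIs, 526 over all UMIs, 845 and 141 with at least 50 and 500 UMIs, 871 without cells with cell cycle genes (155 and 451 cells left), 539 with ratios divided by the median and 1018 over 8%, against 324. Each alternative by construction changed the cells, genes or scale.

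The Malat1 ratio (1.87) was 1.53 at 4%, 2.29 at 6%, 1.92 against cells at most 3%, 2.20 as a mean over cells, 2.15 thinned, 1.78 over all UMIs, 1.81 in cells of 2000 to 5000 UMIs, 2.11 without cells with cell cycle genes, 1.78 divided by the median, 3.26 over 8% and 1.41 at 5 to 8%. In the same order the ribosomal protein ratio (0.835) was 0.881, 0.771, 0.819, 0.789, 0.794, 0.799, 0.852, 0.801, 0.796, 0.625 and 0.904. With a mean over cells the composition ratio was 1.17 for mt-Atp6 and 0.716 for mt-Nd3. The summed ratios of the nuclear respiratory chain (0.725 to 0.936), lysosome (1.10 to 1.34) and AM identity genes (1.06 to 1.23) kept their direction in the 11 alternatives that can move a sum, and those of MHC class II and immediate-early genes in 5 of 11. By depth class, AM identity genes turned in the deepest. The split of genes past the fold was 54.9% higher without cells with cell cycle genes and 61.2% thinned. No paired analysis was possible because there is 1 library. That library limits every value to counting error within 1 mouse, and genes near 200 UMIs are the least certain.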
